A study of Homo sapiens with 4 samples.

Results

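The secreted Wnt antagonists of the Dickkopf (DKK) and secreted Frizzled-related protein (SFRP) families, the Wnt inhibitory factor WIF1 and the Dickkopf receptors KREMEN1 and KREMEN2 were examined in T24 bladder carcinoma cells that expressed the catalytic domain of TET1 (TET1-CD). The genes were taken by symbol: DKK1, DKK2, DKK3, DKK4, SFRP1, SFRP2, SFRP4, WIF1, KREMEN1 and KREMEN2, which are 10 of the 57879 genes in the files. In these cells DKK1 rose 2.34-fold with TET1-CD and KREMEN1 rose 1.41-fold, while KREMEN2, a low gene, fell. The call of KREMEN1 was lost under 3 and that of KREMEN2 under 5 of 13 alternative settings. DKK3, the most abundant of them in control cells, did not pass the test. DKK2, DKK4, SFRP1, SFRP2, SFRP4 and WIF1 had at most 2 fragments in any library, with or without TET1-CD.

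RNA of T24 cells was sequenced in 4 libraries, 2 from control cells and 2 from TET1-CD cells. T24 is an established human bladder cancer line. The study describes the control cells as empty vector (EV) cells without naming the plasmid, and the catalytic domain was carried by a pCDH-3×FLAG plasmid. All 4 libraries were labelled as induced, no inducer was named, and all cells were grown in RPMI with 10% FCS. TET1 is a dioxygenase that converts 5-methylcytosine to 5-hydroxymethylcytosine. The construct is a part of the enzyme driven from a vector, and an enzymatically dead mutant was not among these libraries. Whether the replicates came from separate cultures is not given in the sources used here, so the p-values measure only the spread between libraries, which may be technical.

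Wnt ligands bind a Frizzled receptor together with LRP5 or LRP6, and the signal keeps β-catenin from being degraded. Secreted antagonists act outside the cell at different steps of this chain. SFRP proteins and WIF1 bind the Wnt ligands themselves. DKK1, DKK2 and DKK4 bind LRP5 and LRP6, and with KREMEN1 or KREMEN2 as a second receptor DKK1 removes the co-receptor from the cell surface. DKK3 is the divergent member of its family and does not act as a classical LRP antagonist. Promoters of several of these genes are known to be methylated in carcinomas.

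The promoters below are shown because TET1 acts on cytosines in CpG, and they set DKK1, which rose, beside a pair of genes with hardly any fragments. They are the 250 bases before the start of each gene, read 5′ to 3′ on the gene's own strand. Positions are those of the RefSeq table of GRCh38.p14. Promoters of 4 of the 10 genes were taken, and those of the other antagonist and KREMEN genes were not examined. Capitals mark each CpG. DKK1 lies at chr10:52314031-52314280 (+), WIF1 at chr12:65121306-65121555 (-) and SFRP2 at chr4:153789084-153789333 (-).
DKK1: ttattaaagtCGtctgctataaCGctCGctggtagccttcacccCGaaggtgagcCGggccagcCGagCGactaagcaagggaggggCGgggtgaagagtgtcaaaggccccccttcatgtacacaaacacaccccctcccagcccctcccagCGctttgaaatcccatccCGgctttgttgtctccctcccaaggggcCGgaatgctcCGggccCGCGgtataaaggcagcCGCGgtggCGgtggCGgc
WIF1: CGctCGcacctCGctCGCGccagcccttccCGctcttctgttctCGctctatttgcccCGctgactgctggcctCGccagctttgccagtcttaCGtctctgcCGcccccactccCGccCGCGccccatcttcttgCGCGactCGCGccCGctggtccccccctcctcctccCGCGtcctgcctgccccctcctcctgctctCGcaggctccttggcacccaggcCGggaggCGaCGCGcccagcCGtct
SFRP2: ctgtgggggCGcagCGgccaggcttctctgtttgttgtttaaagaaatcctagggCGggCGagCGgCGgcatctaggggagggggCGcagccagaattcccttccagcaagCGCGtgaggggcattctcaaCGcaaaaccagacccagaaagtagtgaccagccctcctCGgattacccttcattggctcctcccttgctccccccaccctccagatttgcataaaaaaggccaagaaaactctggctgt

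The DKK1 promoter held 18 CpG in 250 bases and was 62.8% G or C. WIF1 held 27 CpG and SFRP2 held 11, and the fourth gene examined, SFRP4 (chr7:37916818-37917067, minus strand), held 17. Among 35116 promoters of the same length the median was 11 CpG, with quartiles of 3 and 23. At least as many CpG as in DKK1 were found in 36.8% of promoters, and at least as many as in WIF1 in 17.7%. For SFRP4 this share was 39% and for SFRP2 50.3%. DKK1 therefore lay between WIF1 and SFRP2 in CpG number. The letters TATAAA were found at position -30 of the DKK1 promoter, counted back from the start. They were on neither strand of the SFRP2, SFRP4 and WIF1 promoters, while 10.7% of all promoters hold them on either strand. CTTTGA, the core letters bound by TCF and LEF factors, occurred in DKK1 at -95 on the gene's strand and at -149 on the other strand. CTTTGA was in none of the SFRP2, SFRP4 and WIF1 promoters, and in 11.2% of all promoters. These matches describe the letters only. No methylation was measured in these libraries, and whether any of these CpG changed was not tested.

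The libraries held 17442143 to 20295266 fragments, and 14573 genes had enough fragments to be tested. TET1 itself was covered by 111 and 83 fragments in control cells and by 2939 and 3310 in TET1-CD cells, a log2 fold change of 5.02 ± 0.08 (SE, edgeR adjusted p = 4.9e-10), as the labels say, although fragments of the vector and of the cell's own TET1 gene cannot be told apart. Over all genes tested 19.7% were called, which here means an adjusted p under 0.05 (edgeR's quasi-likelihood test with Benjamini-Hochberg adjustment over all genes tested), and 3.77% also changed at least 2-fold. Higher genes made up 10.0% and lower genes 9.61%. The keratins KRT7, KRT8 and KRT18 were abundant in every library, whereas CDH1 had at most 2 fragments and KRT5, KRT13 and KRT20 had 0. Of 16 epithelial and urothelial markers 7 were tested and 4 rose, KRT7, KRT18, KRT19 and GATA3. Their summed normalised counts (counts scaled to the mean library size) were 43935 to 44290 in control cells and 49347 to 50024 in TET1-CD cells. Of 8 mesenchymal markers 7 were tested and 3 fell, VIM, FN1 and ZEB2. The list summed to 140703 to 141226 and to 112468 to 116428, most of it FN1 and VIM. SNAI2, ZEB1, CDH2 and SPARC were not called, with log2 fold changes of 0.12, 0.09, -0.04 and -0.09. Fibroblast markers summed to 235 to 239 and to 431 to 434, of which COL1A1 alone was called, with a log2 fold change of 1.89. ACTA2, with the largest count of the list in control cells, went the other way at -0.35, and PDGFRB was at 0.48. COL1A2, COL3A1, DCN, LUM and PDGFRA had at most 4 fragments. The 4 endothelial markers in the files summed to 12.9 to 21.6 and to 17 to 21.9, and blood cell markers to 460 to 625 and to 432 to 443, nearly all of it CD68.

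Of the 10 antagonist and KREMEN genes, 4 were tested and 3 were called, 2 higher and 1 lower, beside the 19.7% of all genes tested, 10.0% higher and 9.61% lower. A fold change of at least 2 was reached by 2 of them, DKK1 and KREMEN2, beside 3.77%. With 4 genes tested, these shares describe the genes and are read no further. The genes not tested were the 6 with almost no fragments.

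**Figure D1:**
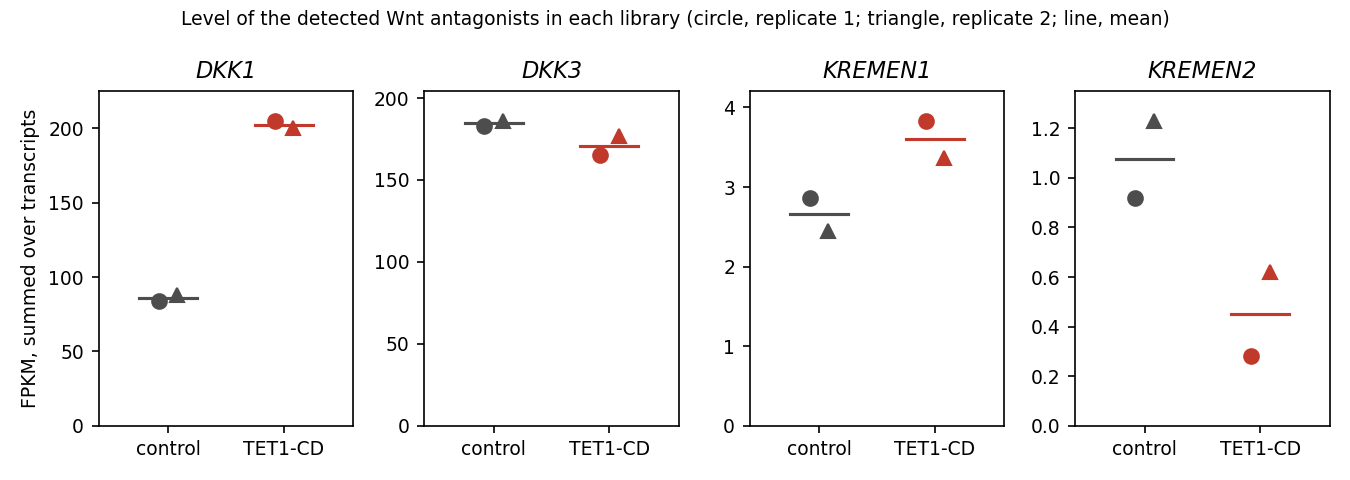
FPKM (fragments scaled to transcript length and library size, summed over the transcripts of each gene, linear axis from 0) of the 4 tested genes in each library, with control in grey, TET1-CD in red and lines at the group means. DKK1 stands at 83.7 and 87.9 in control and at 205 and 200 in TET1-CD, whereas DKK3 stays between 165 and 186.

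DKK1, the Dickkopf protein that binds LRP5 and LRP6, had the smallest p of the 4 tested genes. The gene (ENSG00000107984, plus strand of chromosome 10, from 54074056 to 54077802 on hg19) had 2818 and 2538 fragments in control and 5890 and 6542 in TET1-CD. Both TET1-CD libraries were well above both control libraries, and the groups did not overlap, which was also so for DKK3, a gene not called. Normalised counts were 2670 ± 97.9 in control and 6250 ± 26.4 in TET1-CD (SD, n = 2 each), so the distance between the groups was far larger than the spread within them. The log2 fold change was 1.23 ± 0.05 (SE; 95% interval 1.12 to 1.33), with an edgeR adjusted p of 4.72e-07. The change passed the test under each of the 13 alternatives, between 1.18 and 1.26, with an adjusted p of at most 4.34e-05. By FPKM, DKK1 ranked 929 and 892 among the 14573 genes in control cells and 330 and 339 in TET1-CD cells. The rise went with the higher epithelial sum, the lower mesenchymal sum and the higher fibroblast sum given above, the last carried by COL1A1. Their part in the rise was not tested. In such bulk libraries more RNA per cell and more cells with the RNA cannot be told apart.

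DKK1 fragments were assigned to 4 transcripts, all with higher counts in TET1-CD. ENST00000373970, the coding transcript with 4 exons and 1805 bases, held 96.1% to 97.1% of the fragments of the gene in every library. Its estimated counts were 2722 and 2448 in control and 5658 and 6351 in TET1-CD. The share held by this transcript was nearly level across libraries, so the rise of the gene was the rise of its coding form. On its own it had a log2 fold change of 1.23 ± 0.05 (SE, edgeR, unadjusted p = 1.81e-05, adjusted p = 0.065). ENST00000476752, with 3 exons and no defined coding sequence, had a log2 fold change of 1.28 ± 0.32 (SE, edgeR, unadjusted p = 0.0152, adjusted p = 0.298).

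The 3 genes whose pattern over the 4 libraries was nearest to that of DKK1, among 1811 genes of like abundance, were CXCL5, PODXL and TNFRSF6B. CXCL5, a chemokine that draws neutrophils, had 1598 and 1474 fragments in control and 3438 and 3417 in TET1-CD, at a distance of 0.129 (Euclidean, on centred log2 CPM). PODXL, a sialomucin of the cell surface, had 3265 and 2736 against 6212 and 6709, at 0.13. TNFRSF6B, a soluble decoy receptor for Fas ligand, had 1796 and 1738 against 3430 and 3704, at 0.217. All 3 lie on other chromosomes than DKK1, and with 4 libraries this likeness is mainly the difference between the groups.

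The tested genes next to DKK1 on its chromosome moved unequally. RP11-346D6.6, which lies 132832 bases beyond DKK1 on the opposite strand, had 47 and 37 fragments in control and 210 and 189 in TET1-CD, a log2 fold change of 2.27 ± 0.18 (SE, edgeR adjusted p = 2.71e-05). CSTF2T, a cleavage stimulation factor 614701 bases before DKK1, had 1547 and 1181 against 1384 and 1516 fragments, a log2 fold change of 0.11 ± 0.07 (adjusted p = 0.3 by edgeR).

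**Figure D2:**
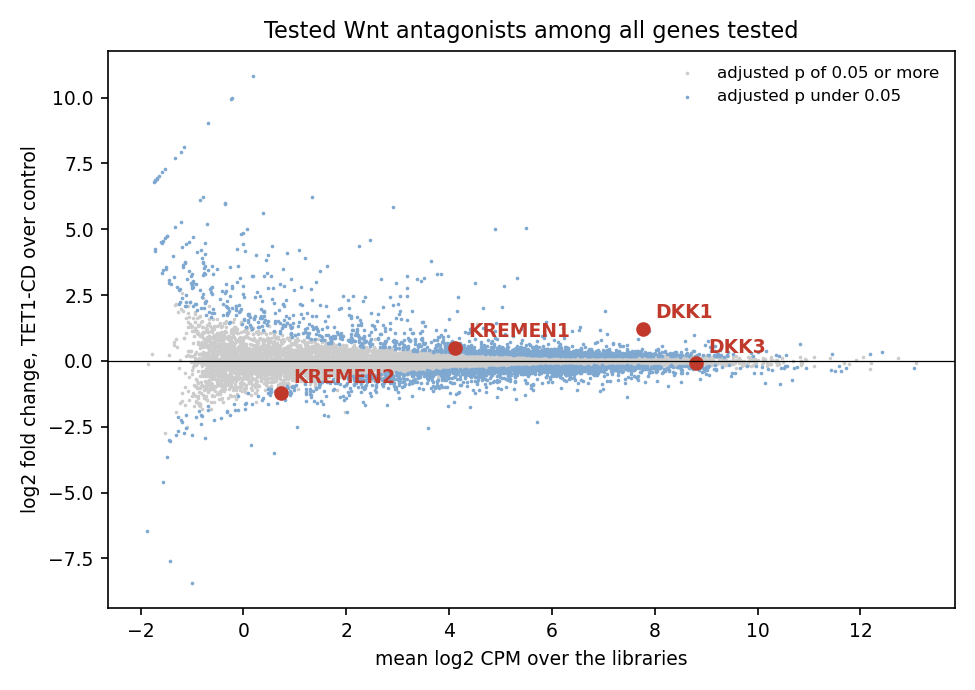
Log2 fold change of TET1-CD over control against mean log2 CPM for each of the 14573 genes tested, with genes of adjusted p under 0.05 in blue and the 4 tested antagonist and KREMEN genes in red. DKK1 stands at 1.23, among the higher values of its abundance, and DKK3, further right, lies close to the zero line at -0.09.

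DKK3, the divergent Dickkopf (ENSG00000050165, minus strand of chromosome 11, from 11984653 to 12031316 on hg19), was abundant in both groups. It had 9291 and 8075 fragments in control and 7398 and 8733 in TET1-CD. Scaled for depth, the libraries gave 8643 ± 99.2 and 8095 ± 314 normalised counts (SD, n = 2 each), with both TET1-CD libraries slightly lower. The log2 fold change was -0.09 ± 0.05 (SE), with a 95% interval of -0.20 to 0.01 and an edgeR adjusted p of 0.25. DKK3 passed the test under none of the 13 alternatives, which ran from -0.13 to -0.05 with adjusted p from 0.0868 to 0.811.

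Of the 17 transcripts of DKK3, a pair of coding forms held nearly all fragments. ENST00000326932 held 62.1% and 64.8% in control and 69.2% and 68.9% in TET1-CD. ENST00000396505 held 35.5% and 31.1% against 29.1% and 28.6%. The share of ENST00000396505 was lower in both TET1-CD libraries. Its log2 fold change was -0.29 ± 0.07 (SE, edgeR, unadjusted p = 0.0161, adjusted p = 0.302) and that of ENST00000326932 was 0.03 ± 0.06 (unadjusted p = 0.624, adjusted p = 0.925 by edgeR), and the difference between the forms was not tested.

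The order of the Dickkopf levels by FPKM was not the same in both groups. By normalised counts, which are not scaled to transcript length, DKK3 stayed above DKK1 in both groups. These were 8643 for DKK3 and 2670 for DKK1 in control, and 8095 and 6250 in TET1-CD. In control cells DKK1 stood at 85.8 ± 2.98 FPKM and DKK3 at 185 ± 2.38, and in TET1-CD cells DKK1 stood at 202 ± 3.71 and DKK3 at 171 ± 8.55 (SD, n = 2 each). The ratio of DKK1 to DKK3 FPKM was 0.458 and 0.472 in control libraries and 1.24 and 1.13 in TET1-CD libraries. The FPKM of the 10 genes summed to 270 and 278 in control and to 375 and 381 in TET1-CD, and DKK1 and DKK3 together made up 98.6% to 98.9% of it. The share of DKK1 went from 31% and 31.6% to 54.7% and 52.4%. Nearly all of the summed FPKM was therefore DKK1 and DKK3 in both groups. The ratio and the shares were not tested apart from the genes.

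KREMEN1, the Dickkopf receptor that is the more abundant of the KREMEN pair here, rose. The gene (ENSG00000183762, plus strand of chromosome 22, from 29469066 to 29564321 on hg19) had 283 and 263 fragments in control and 381 and 382 in TET1-CD, with no overlap. Normalised counts were 272 ± 16 and 385 ± 29.4 (SD, n = 2 each), and FPKM was 2.86 and 2.45 against 3.83 and 3.37. The log2 fold change was 0.50 ± 0.10 (SE; 95% interval 0.29 to 0.70), with an edgeR adjusted p of 0.00928. The call was lost without TET1-CD replicate 1, where the log2 fold change was 0.42 (edgeR adjusted p = 0.13), and by limma on log2 FPKM, as given with the other settings. Its main transcript ENST00000400335 held 81.4% and 67.1% of the fragments in control and 77.2% and 64.9% in TET1-CD, so the spread within groups was larger than the difference between them. The neighbouring genes ZNRF3, itself a ubiquitin ligase that removes Frizzled receptors, and RHBDD3 had log2 fold changes of 0.03 ± 0.10 (adjusted p = 0.867 by edgeR) and 0.04 ± 0.11 (adjusted p = 0.827 by edgeR).

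KREMEN2, its paralog (ENSG00000131650, plus strand of chromosome 16, from 3013945 to 3018384 on hg19), was near the lower limit of what was tested. It had 44 and 48 fragments in control and 11 and 28 in TET1-CD, and FPKM was 0.92 and 1.23 against 0.28 and 0.62. The groups did not overlap, yet the TET1-CD libraries stood far apart from each other, at 19.2 ± 10.6 normalised counts against 46.2 ± 7.92 in control (SD, n = 2 each). The log2 fold change was -1.23 ± 0.37 (SE; 95% interval -1.96 to -0.50), which is 2.35-fold lower, with an edgeR adjusted p of 0.0429. DESeq2 did not call it (-1.26, adjusted p = 0.116). Without TET1-CD replicate 1, the library with 11 fragments, the log2 fold change was -0.78 (edgeR adjusted p = 0.312), without control replicate 2 it was -1.06 (edgeR adjusted p = 0.0929), and without TET1-CD replicate 2 it was -1.96. KREMEN2 shares 360 bases with PKMYT1, a kinase gene on the opposite strand with 791 to 1041 fragments, and since the use of strand in counting is not stated, fragments of the shared stretch cannot be told apart. PKMYT1 had a log2 fold change of 0.23 ± 0.08 (SE, edgeR adjusted p = 0.0578). The tested genes on either side, FLYWCH1 and PAQR4, had log2 fold changes of -0.03 ± 0.07 (adjusted p = 0.815 by edgeR) and 0.16 ± 0.08 (adjusted p = 0.21 by edgeR).

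**Figure D3:**
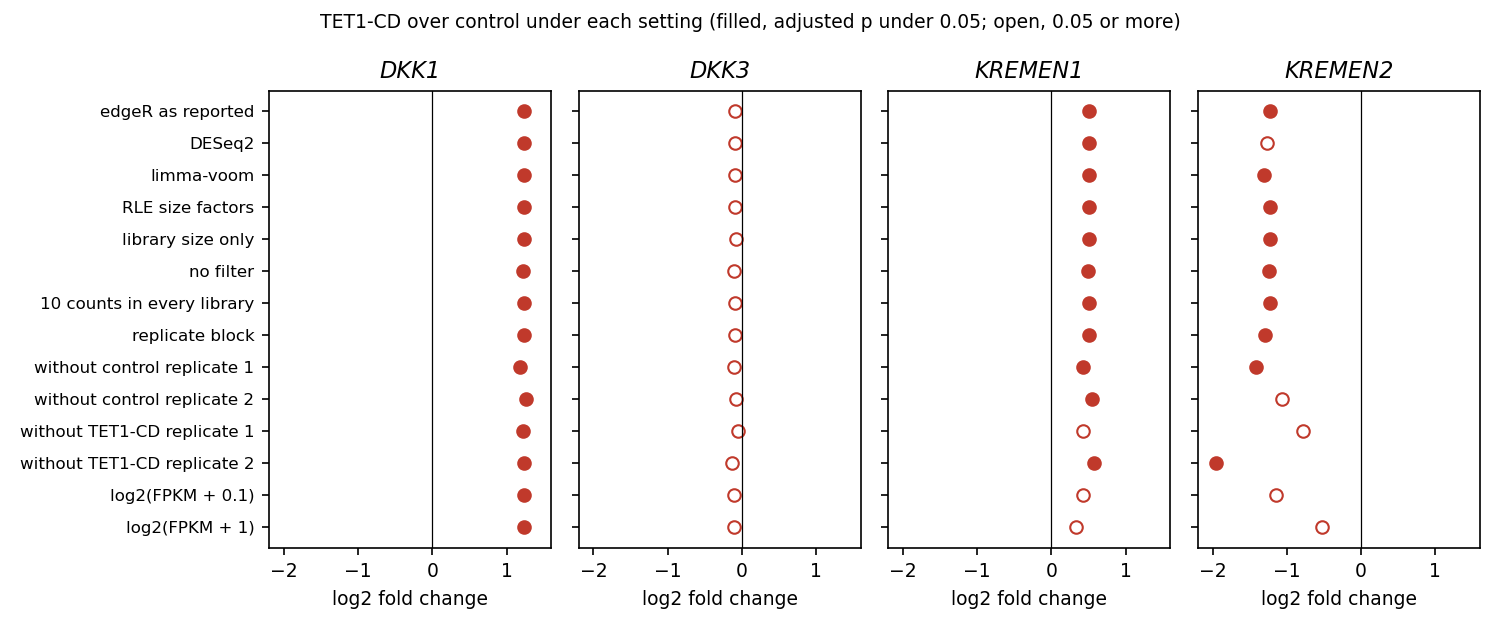
Log2 fold change of TET1-CD over control for the 4 tested genes (panels, same horizontal axis) under each setting (rows), with filled points at an adjusted p under 0.05 and open points at 0.05 or more. DKK1 is filled throughout and DKK3 open throughout, whereas KREMEN1 and KREMEN2 lose the call in several rows.

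The ligand-binding antagonists among the 10 genes, SFRP1, SFRP2, SFRP4 and WIF1, were close to absent from T24 RNA. SFRP2 and SFRP4, along with the Dickkopf genes DKK2 and DKK4, had 0 fragments in all 4 libraries. SFRP1 had 0 and 1 fragments in control and 1 and 2 in TET1-CD, and WIF1 had 0 and 1 in control and 0 and 0 in TET1-CD. None of these 6 genes rose above 3 fragments in any library. A count of 0 allows up to 3 fragments, which corresponds to 0.148 to 0.172 CPM and covers counting error only. Where SFRP1 or WIF1 had 1 or 2 fragments, the limit is higher. Expression below these limits, and any change within them, was not detectable at this depth, and no fold change is given. By FPKM, SFRP1 reached at most 0.02 FPKM and WIF1 at most 0.03.

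At the level of single transcripts, 34 transcripts of the 4 tested genes were listed and 18 had enough fragments for a test. edgeR called 0 of them, beside 0.00231% of all 43213 transcripts tested, and 3 had an unadjusted p under 0.05, beside 11.2% of all. They were the 2 DKK1 transcripts and ENST00000396505 of DKK3, described above. DESeq2 called these 3, and limma-voom called the coding DKK1 transcript. The counts of single transcripts are estimates that divide shared fragments, and the error of that division is not in these p-values.

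The rest of the Wnt pathway was described from 5 lists by role. Of 17 other antagonists 7 were tested, 2 rose and 1 fell, which is 42.9% called beside 19.7% of all genes tested, with a median log2 fold change of 0.175 beside 0.001. Whether the share called in any of the lists differed from that over all genes was not tested. NOTUM, the secreted enzyme that strips the lipid from Wnt ligands, had 13 and 7 fragments in control and 25 and 33 in TET1-CD, a log2 fold change of 1.54 ± 0.40 (SE, edgeR adjusted p = 0.0243). TRABD2A, a membrane protease that cleaves Wnt ligands, rose by 0.36 ± 0.09 on the log2 scale (SE, edgeR adjusted p = 0.0172). TPBG, a membrane glycoprotein that dampens Wnt signalling, fell by 0.37 ± 0.06 on the log2 scale (SE, edgeR adjusted p = 0.00361). FRZB, another secreted Frizzled-related protein gene, was tested and not called. It had 4 and 8 fragments in control and 12 and 14 in TET1-CD, a log2 fold change of 1.11 ± 0.57 (SE, edgeR adjusted p = 0.21). A further 9 of the 17 were at or under 3 fragments in every library, as SFRP1, SFRP2 and SFRP4 were.

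Of 20 receptors and co-receptors 16 were tested, 2 rose and 4 fell (37.5% called, beside 19.7% of all genes), with a median log2 fold change of -0.054. LRP5 and LRP6, the co-receptors that DKK1 binds, had log2 fold changes of -0.05 ± 0.07 (adjusted p = 0.688 by edgeR) and 0.03 ± 0.10 (adjusted p = 0.87 by edgeR). CKAP4, another receptor of DKK1, stood at -0.13 ± 0.05 (adjusted p = 0.121 by edgeR). LGR4, a receptor for R-spondins, had 908 and 741 fragments in control and 376 and 421 in TET1-CD, and fell by 1.03 ± 0.08 on the log2 scale. ROR2, a receptor for WNT5A, had 18 and 17 against 42 and 71 fragments, a log2 fold change of 1.69 ± 0.32, and the Frizzled receptor FZD8 had 179 and 202 against 347 and 394, a log2 fold change of 0.97 ± 0.13. PTK7, FZD1 and FZD5 fell by 0.26 ± 0.06, 0.29 ± 0.08 and 0.41 ± 0.12 on the log2 scale.

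Among 25 genes of ligands and their secretion 10 were tested, 1 rose and 2 fell (30% called, beside 19.7%), with a median of 0.094. WNT5A, a ligand known mainly for β-catenin-independent signals, had 118 and 102 fragments in control and 169 and 186 in TET1-CD, a log2 fold change of 0.70 ± 0.13. WNT3, a classical β-catenin ligand, had 314 and 274 against 152 and 173, and fell by 0.84 ± 0.11 on the log2 scale. WLS, which carries Wnt proteins to the cell surface, fell by 0.32 ± 0.08 on the log2 scale.

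All 20 cytoplasmic and nuclear components were tested, and 1 rose and 2 fell (15% called, beside 19.7%), with a median of -0.013. TCF7, a factor that binds DNA with β-catenin, had 77 and 67 fragments in control and 155 and 172 in TET1-CD, a log2 fold change of 1.20 ± 0.15. BCL9L, a β-catenin co-activator, fell by 0.23 ± 0.05 and the kinase GSK3B by 0.22 ± 0.06 on the log2 scale. CTNNB1, which encodes β-catenin, was at -0.05 ± 0.06 (adjusted p = 0.59 by edgeR).

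Of 21 general β-catenin target genes 17 were tested, 2 rose and 5 fell (41.2% called, beside 19.7%), with a median of -0.031. VEGFA, the vascular growth factor, had 3364 and 3018 fragments in control and 1596 and 1827 in TET1-CD, and fell by 0.89 ± 0.06 on the log2 scale. Fibronectin FN1, the cyclin CCND1 and the factor JUN fell by 0.26 ± 0.06, 0.22 ± 0.06 and 0.23 ± 0.06. The nuclear receptor PPARD and the factor TCF4 rose by 0.36 ± 0.09 and 0.34 ± 0.10. This TCF4 is the gene on chromosome 18 and not TCF7L2. TCF7L2, among the nuclear components, was at -0.34 ± 0.12 (adjusted p = 0.0776 by edgeR). CD44, an adhesion receptor, fell by 0.19 ± 0.06. AXIN2, the usual readout of β-catenin signalling, had only 16 to 18 fragments, with a log2 fold change of 0.06 ± 0.38 (adjusted p = 0.937 by edgeR).

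**Figure D4:**
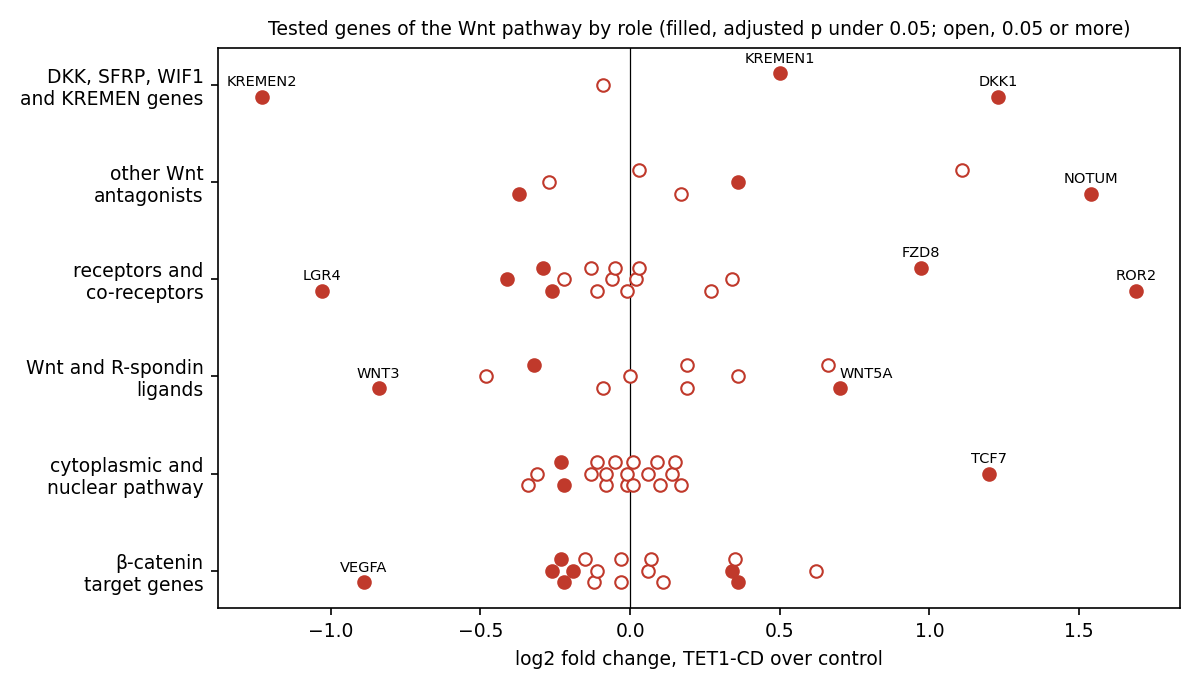
Log2 fold change of TET1-CD over control (horizontal axis) for each tested gene of the antagonist and KREMEN set and of the 5 lists (rows), filled at an adjusted p under 0.05 and open at 0.05 or more, with vertical offsets within a row only to part the points. DKK1 at 1.23 and NOTUM at 1.54 stand to the right, KREMEN2 at -1.23 and LGR4 at -1.03 to the left, and DKK3 at -0.09 lies near 0.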

How the data were processed

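Total RNA of 2 control and 2 TET1-CD T24 cell samples was sequenced. The authors deposited, for each library, an expected count (an estimated number of fragments, which need not be whole) and FPKM, over 195700 transcripts. The submitters' processing notes name cutadapt 1.9.1, HISAT2 2.0.1, HTSeq 0.6.1, DESeq2 and hg19. Which tool made the estimates is not given in the sources used here.

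The counts of all transcripts with the same gene ID were added and rounded. TET1-CD was compared with control by edgeR 4.0.16 in R 4.3.3 (filterByExpr, TMM, glmQLFit, glmQLFTest, no block), with p adjusted by Benjamini-Hochberg over all 14573 genes tested. The SE was derived from the log2 fold change and its F statistic. FPKM was added up in the same way. TMM factors were 0.9934 to 1.005. The code of the fit was checked on simulated data with changes placed in abundant genes only, which does not cover low genes such as KREMEN2. A chi-square per gene of 2.68 (TET1-CD pair) and 6.13 (control pair) showed that libraries of a group differed by more than sampling noise.

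The genes and lists were chosen with earlier results of these data known. Beside the antagonist and KREMEN genes and TET1, the genes named were the up to 5 called genes of smallest p in each list and any needed to name a count of 5 or fewer, 3 genes nearest to DKK1 in pattern and within 1 log2 CPM of it, and the tested neighbours of called genes. FRZB, LRP5, LRP6, CKAP4, TCF7L2, CTNNB1, AXIN2, PKMYT1 and the marker genes were named for their role and after values were seen. Alternatives were DESeq2 1.42.0, limma 3.58.1 (voom, and log2 FPKM with pseudocounts of 0.1 and 1), other normalizations and filters, a replicate block and the omission of each library.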

Additional observations from a re-analysis of the deposited data

How the results depend on the processing

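DKK1 and DKK3 kept their direction and their side of the threshold under each of 13 alternatives. KREMEN1 lost its call in limma on log2(FPKM + 0.1), at 0.43 (adjusted p = 0.152), and on log2(FPKM + 1), at 0.33 (adjusted p = 0.141), and ran from 0.42 to 0.57 with a library left out. KREMEN2 lost it by DESeq2, at -1.26, on log2(FPKM + 0.1), at -1.15 (limma adjusted p = 0.0871), and on log2(FPKM + 1), at -0.52 (limma adjusted p = 0.0717), and ran from -1.96 to -0.78 with a library left out; the cause was not tested. The antagonist and KREMEN genes called were 3 as reported, 1 on either FPKM scale and 1 to 3 with a library left out. Of their transcripts, DESeq2 called 3, and limma-voom, no filter and 10 counts in every library called 1 each, beside 0. Over all genes 2865 were called, 1739 by DESeq2, 4844 at an unadjusted p, and 832 to 3779 with a library left out, lowest without TET1-CD replicate 1 (832) and replicate 2 (1014). With a library left out, the lone sample of a group is assumed to vary like the other group. Other antagonists called were 3 as reported, 1 by DESeq2 and 0 to 3 with a library left out, and in the same omissions receptors ran from 2 to 7 (6 reported), ligands from 1 to 4 (3 reported), cytoplasmic and nuclear components from 1 to 5 (3 reported) and targets from 1 to 8 (7 reported). The lowest of each came without a TET1-CD library. The replicate block called 3235 genes, 2819 of them among the 2865, and the same number, 3, of the antagonist and KREMEN genes. Same-numbered libraries deviated together with a correlation of 0.00713 over 14573 genes, and with 2 pairs the numbers were read as names only. At this depth, changes of DKK2, DKK4, SFRP1, SFRP2, SFRP4 and WIF1 were not detectable.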
